A study of Homo sapiens with 8 samples.

Results

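The mitosis genes described here are 36 human genes whose products start, carry out or check cell division: the proliferation mark MKI67, the mitotic cyclins and CDK1, the Aurora and Polo-like kinases, the spindle checkpoint, mitotic kinesins, centromere proteins, spindle and cytokinesis proteins, and the transcription factors FOXM1 and MYBL2. They were taken as a list of gene symbols. A gene was read from probe sets (groups of short probes for 1 transcript) whose platform annotation gives only that symbol, and among these from the probe set with the highest mean over the 8 arrays. All 36 genes had such a probe set, and all 36 passed the filter on dim probe sets, a mean log2 level of 4.46, which left 14180 of 19775 genes for testing.

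The study asked how gene expression differs between sublines of esophageal squamous cell carcinoma lines that migrate more or less. KYSE180 and KYSE30, both established human lines, went through 4 rounds of selection in transwell chambers, where cells can crawl through a porous membrane. The 180D and 30D sublines are the cells that crossed, and 180U and 30U are the cells that did not. Each group holds 2 arrays from separately selected populations, each D population shares its parental population with 1 U population of the same line, and all were grown for 2 passages after the harvest. No drug and no genetic change is given for any group, so all 4 groups are unmodified cells of 2 lines, and p-values measure the spread between selected populations of those lines. Levels are log2 values of an Affymetrix array after robust multi-array averaging (RMA), and a level can be compared between arrays for 1 gene but not between genes.

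Division is driven by cyclin B and its kinase CDK1, which the CDC25 phosphatases switch on. Aurora and Polo-like kinases and the mitotic kinesins then build the spindle, and the checkpoint proteins BUB1, BUB1B, MAD2L1 and TTK hold back CDC20, the activator of the anaphase-promoting complex, until every chromosome is attached. Most of these transcripts are made late in the cell cycle, when FOXM1 and B-MYB (the product of MYBL2) act with the MuvB complex on promoters that carry a CHR element and CCAAT boxes, and the DREAM complex shuts the same promoters in resting cells. Their level in a culture therefore depends both on how many cells are dividing and on how much of each transcript a dividing cell holds.

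The promoter table, from RefSeq on GRCh38.p14, gives 300 bases per start site, 250 before the start and 50 after it. It matched 31 of the 36 genes with 37 windows, several genes having more than 1 start; BIRC5, TPX2, TTK, AURKA and FOXM1 are named only. The CHR element was searched as TTTGAA and the CCAAT box as CCAAT, each on both strands. TTTGAA was found in 25 of the 37 windows (67.6%), against 15.2% of all 35116 windows of the table and 10.6% of the 16343 windows of tested genes. Between 60 bases before and 50 after the start it was found in 20 of the 37 (54.1%), against 5.03% of all windows. CCAAT was found in 29 of the 37 (78.4%) and in 34.6% of all windows, and 22 of the 37 (59.5%) held both motifs, against 5.90%. Some windows of the same gene overlap, as for CDC25C and ECT2, so that 1 match can be counted in more than 1 window. Counted by gene, 22 of the 31 held TTTGAA in a window and 26 held CCAAT. A match is a description of the letters and not evidence of binding.

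The windows below are those of some of the genes on which the results turn. Windows of others, CENPF among them, are not printed. They run 5′ to 3′ on the gene's strand, and capitals mark TTTGAA or CCAAT read on either strand. MKI67 (chr10:128126374-128126673, minus strand) has 2 TTTGAA, at -47 and -29 from the start, the second sharing 1 base with a CCAAT read on the other strand. CCNB2 (chr15:59104896-59105195, plus strand) has 1 TTTGAA at -29 and 4 CCAAT, and CDC25C (chr5:138331755-138332054, minus strand, 1 of 4 windows of this gene) has 1 TTTGAA at -30 and 1 CCAAT at -85. The other CDC25C windows differ: chr5:138338292-138338591 and chr5:138338306-138338605 hold neither motif, and in chr5:138331828-138332127 TTTGAA lies at 43, after the start. BUB1B (chr15:40160819-40161118, plus strand) has a TTTGAA at -23 and no CCAAT. KIF20A (chr5:138178862-138179161, plus strand) has CCAAT at -94 and -67 and no TTTGAA, and MYBL2 (chr20:43666864-43667163, plus strand) has neither motif in this window.
MKI67: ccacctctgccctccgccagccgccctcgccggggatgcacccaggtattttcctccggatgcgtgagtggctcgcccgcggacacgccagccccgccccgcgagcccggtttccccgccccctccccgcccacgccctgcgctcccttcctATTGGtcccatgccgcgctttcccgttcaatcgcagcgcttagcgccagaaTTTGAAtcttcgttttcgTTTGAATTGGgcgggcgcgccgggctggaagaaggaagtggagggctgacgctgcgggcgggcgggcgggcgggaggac
CCNB2: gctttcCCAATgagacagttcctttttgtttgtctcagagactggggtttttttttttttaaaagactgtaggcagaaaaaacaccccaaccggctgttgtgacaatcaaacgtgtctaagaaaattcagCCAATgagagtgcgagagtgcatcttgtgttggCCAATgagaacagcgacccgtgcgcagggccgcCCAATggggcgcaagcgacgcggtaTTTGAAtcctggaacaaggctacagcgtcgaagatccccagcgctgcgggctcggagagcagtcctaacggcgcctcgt
CDC25C: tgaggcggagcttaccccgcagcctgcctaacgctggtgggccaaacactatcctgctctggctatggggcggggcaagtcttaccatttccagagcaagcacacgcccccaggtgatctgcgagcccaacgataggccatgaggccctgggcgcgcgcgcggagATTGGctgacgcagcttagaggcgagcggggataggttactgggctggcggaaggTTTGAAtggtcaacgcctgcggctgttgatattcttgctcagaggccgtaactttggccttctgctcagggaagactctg
BUB1B: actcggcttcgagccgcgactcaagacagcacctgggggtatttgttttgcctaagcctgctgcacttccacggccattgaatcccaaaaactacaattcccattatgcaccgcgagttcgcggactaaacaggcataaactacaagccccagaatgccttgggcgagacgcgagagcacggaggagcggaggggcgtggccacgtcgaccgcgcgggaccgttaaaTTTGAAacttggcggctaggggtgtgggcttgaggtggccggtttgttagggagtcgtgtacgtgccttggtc
KIF20A: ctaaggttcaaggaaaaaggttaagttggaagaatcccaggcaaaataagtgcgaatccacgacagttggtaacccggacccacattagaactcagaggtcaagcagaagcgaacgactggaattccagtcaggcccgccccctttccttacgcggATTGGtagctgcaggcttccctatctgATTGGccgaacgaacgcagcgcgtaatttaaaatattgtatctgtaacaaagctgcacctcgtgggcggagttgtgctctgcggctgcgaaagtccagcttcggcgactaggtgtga
MYBL2: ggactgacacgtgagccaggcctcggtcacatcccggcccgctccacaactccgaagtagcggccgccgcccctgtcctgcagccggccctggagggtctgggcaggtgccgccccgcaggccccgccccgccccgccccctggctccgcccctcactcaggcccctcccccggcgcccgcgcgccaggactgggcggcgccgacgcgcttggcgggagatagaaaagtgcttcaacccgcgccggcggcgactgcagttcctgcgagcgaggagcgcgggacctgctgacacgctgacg

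The arrays were checked for cell identity and RNA quality before the results. Of 12 squamous epithelial markers, KRT6A, KRT17 and TP63 had no probe set with only their symbol, and 9 were read. EPCAM, CDH1, SFN and JUP read 10.13 to 13.00 on all 8 arrays. The other 5, which include the basal keratins KRT5 and KRT14 and the desmosome genes DSG3, DSC3 and PKP1, read 10.12 to 13.64 on the KYSE180 arrays and 3.45 to 7.19 on the KYSE30 arrays. KRT14 read 3.45 to 4.27 on the KYSE30 arrays, below the filter value on each. That value is a percentile of mean level and not a test of absence. Of the markers of other cell types, 4 of 8 fibroblast, 4 of 7 endothelial and 1 of 7 immune genes lay above the filter on all 8 arrays, and the leukocyte gene PTPRC read 2.69 to 3.10. The ACTB 3′ probe set exceeded the 5′ probe set, a sign of RNA length, by 1.92 and 1.42 in 180D, against 1.36 and 1.40 in 180U, and by 1.06 and 1.23 in 30D, against 1.25 and 1.27 in 30U. For GAPDH the gap was 0.15 and 0.14 in 180D and 0.10 to 0.12 on the other 6 arrays. The ACTB gap was widest on the array of 180D replicate 1. There 27 of the 36 mitosis genes read higher than in 180D replicate 2, against 58.0% of all genes, with a median gap of 0.07 and the largest gap, 0.31, for TPX2. Several KYSE180 results are given without this array as well, but the counts by sign, by overlap and by pair are given only with it. Leaving it out does not level the gaps, which were wider on both 180D arrays than on the 180U arrays.

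**Figure D1:**
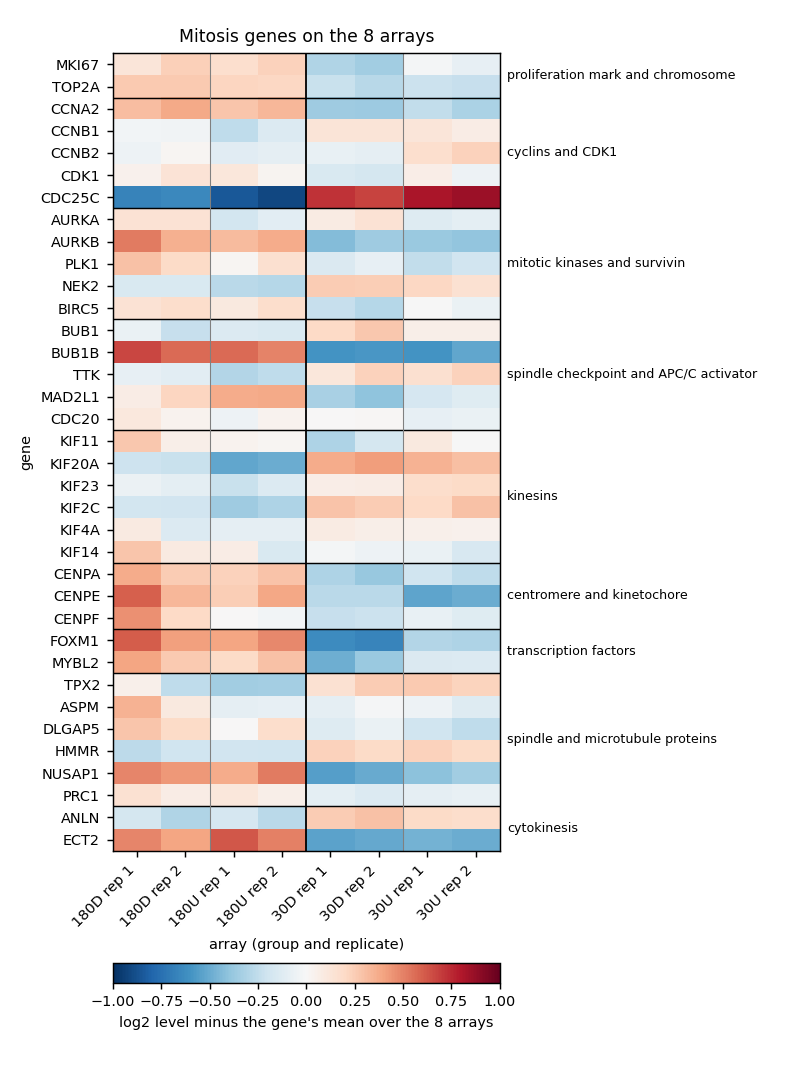
Level of each of the 36 mitosis genes (rows, by role) on the 8 arrays (columns, 180D, 180U, 30D, 30U), as log2 level minus the gene's mean over the 8 arrays. The strongest contrast runs between the lines, with CDC25C brighter in KYSE30 and BUB1B, ECT2, FOXM1 and NUSAP1 brighter in KYSE180; the D and U columns of a line differ far less.

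Within each line the mitosis genes differed little between the cells that crossed the membrane and those that did not. Averaged over the 36 genes, the log2 level was 10.06 and 10.08 in the 2 populations of 30D, against 10.12 and 10.11 in 30U. In KYSE180 it was 10.32 and 10.24 in 180D, against 10.17 and 10.19 in 180U. The D arrays thus lay below the U arrays in KYSE30 and above them in KYSE180; no test was made of these means. The ACTB 3′ to 5′ gap ran the same way, lower on both 30D arrays than on the 30U arrays and higher on both 180D arrays than on the 180U arrays, and its part in the levels was not tested. The mean over all tested genes ran from 7.52 to 7.58 on the 8 arrays. No mitosis gene changed by as much as 0.5 within a line, but few genes of any kind did, 4.39% of all in KYSE30 and 2.06% in KYSE180. The median absolute change was 0.09 for the 36 genes and 0.11 for all genes in KYSE30, and 0.10 and 0.09 in KYSE180. The largest change of a mitosis gene in either line was 1.27-fold, and standard errors were 0.05 to 0.10. The 95% intervals of all 36 genes lay between -0.52 and 0.46 in KYSE30 and between -0.38 and 0.54 in KYSE180.

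In KYSE30, 5 mitosis genes fell and 1 rose in 30D, and 30 did not pass (limma, adjusted p under 0.05 over all 14180 genes). The 5 that fell, 5 of 36 genes, compare with 8.12% of all tested genes called lower, and the 1 that rose with 8.42% called higher. Called in either direction were 6 of 36, against 16.5% of all genes. At an unadjusted p under 0.05, 9 were lower and 3 higher, against 14.6% and 16.3% of all genes. The median change of the 36 was -0.03, and that of all genes was 0.01; 14 of the 36 lay above 0, against 51.9% of all genes. The 5 that fell were the transcription factors FOXM1 and MYBL2, the cyclin CCNB2, the proliferation mark MKI67 and the survival and chromosome passenger protein BIRC5; the 1 that rose was the kinase AURKA. In bulk samples, fewer dividing cells and less RNA per dividing cell cannot be told apart.

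Both transcription factors of the list were lower in 30D. FOXM1, the forkhead factor that switches on late cell cycle genes, read 9.31 and 9.27 in 30D, against 9.65 and 9.63 in 30U. The groups did not overlap, and the change was -0.35 ± 0.07 (SE, n = 2 each; limma adjusted p = 0.0197). MYBL2, which encodes B-MYB, read 8.43 and 8.55 in 30D, against 8.77 and 8.79 in 30U, a change of -0.29 ± 0.07 (SE; limma adjusted p = 0.0320). Both 30D populations lay below both 30U populations for this gene too. Blocked by parental population, the adjusted p was 0.0279 for FOXM1 and 0.0409 for MYBL2. Each of these genes is read by 1 probe set.

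Among the cyclins and their partners, 1 of 5 passed in 30D. CCNB2, one of the B-type cyclins that activate CDK1, read 10.78 and 10.76 in 30D, against 11.02 and 11.08 in 30U. Its arrays did not overlap, and it fell by 0.28 ± 0.05 (limma adjusted p = 0.0140, and 0.0471 with the parental block). A dim second probe set of CCNB2, with a mean of 4.94, went the other way with a difference of 0.32, and with all probe sets of a gene averaged the CCNB2 change was 0.02 (adjusted p = 0.873). CCNB1, the other B-type cyclin, read 11.56 and 11.56 in 30D, against 11.55 and 11.51 in 30U, a difference of 0.03 ± 0.06. The kinase CDK1 read 10.90 and 10.87 in 30D, against 11.12 and 11.00 in 30U. That difference of -0.18 ± 0.07 did not pass (limma adjusted p = 0.117), and 2 further bright probe sets of CDK1 both gave -0.03. CCNA2, the cyclin of S phase and mitotic entry, differed by -0.08 ± 0.06, and CDC25C, a phosphatase that activates CDK1, by -0.14 ± 0.05 (limma adjusted p = 0.120).

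MKI67, the gene of the Ki-67 antigen, read 9.64 and 9.59 in 30D, against 9.92 and 9.86 in 30U. The 30D arrays were both lower, with a change of -0.27 ± 0.06 (limma adjusted p = 0.0251). Its 3 other probe sets gave -0.08, -0.09 and -0.19, all below 0 and smaller in size. TOP2A, the topoisomerase that untangles chromosomes before they separate, differed by -0.02 ± 0.05. BIRC5, which encodes survivin, read 10.62 and 10.55 in 30D, against 10.84 and 10.78 in 30U. It fell by 0.22 ± 0.06 (limma adjusted p = 0.0385) with no overlap, and its other probe sets gave -0.29, -0.04 and -0.03. AURKA, the kinase of the spindle poles, was the gene that went the other way: it read 10.76 and 10.82 in 30D, against 10.55 and 10.58 in 30U. The rise was 0.23 ± 0.05 (limma adjusted p = 0.0297), and its other bright probe set gave 0.17. The kinases PLK1, NEK2 and AURKB differed by 0.10, 0.07 and -0.01. With the parental population as a block these 3 calls were lost, the adjusted p being 0.0636 for MKI67, 0.0668 for AURKA and 0.0782 for BIRC5.

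None of the remaining role groups held a gene that passed in 30D. Of the 5 genes of the checkpoint and its target CDC20, 0 passed by limma (1 lower and 1 higher at an unadjusted p under 0.05): MAD2L1 differed by -0.22 ± 0.06 (adjusted p = 0.0597) and BUB1 by 0.18 ± 0.07 (adjusted p = 0.113), while BUB1B, TTK and CDC20 lay between -0.03 and 0.08. Of the 6 kinesins 0 passed by limma (1 at an unadjusted p under 0.05), the motor that pushes spindle poles apart, KIF11, coming nearest at -0.29 ± 0.09 (adjusted p = 0.0633) and the other 5 lying between -0.11 and 0.08. Of the 3 centromere genes 0 passed by limma (1 at an unadjusted p under 0.05): the kinetochore motor CENPE differed by 0.24 ± 0.09 (adjusted p = 0.121), and CENPA and CENPF by -0.12 each. The 8 spindle, microtubule and cytokinesis genes ranged from -0.15 (NUSAP1) to 0.13 (DLGAP5), with 0 called by limma and 0 at an unadjusted p under 0.05. Without any 1 of the 4 KYSE30 arrays, 0 of the 36 genes passed by limma, with 7 without 30D replicate 2 or 30U replicate 1 and 8 without 30D replicate 1 or 30U replicate 2 at an unadjusted p under 0.05; without either 180D array 9 passed.

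**Figure D2:**
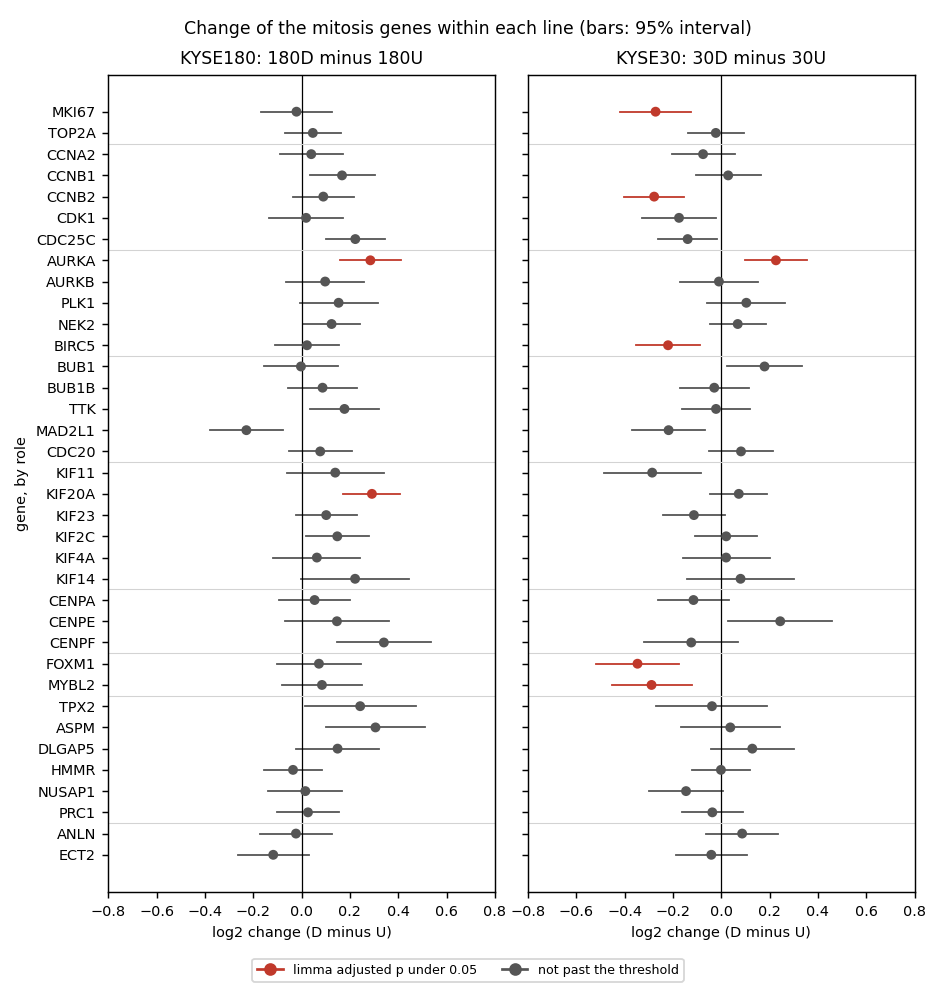
Change of each mitosis gene between the D and U arrays (log2, D minus U) in KYSE180 (left) and KYSE30 (right), with 95% intervals from the limma fit; red marks an adjusted p under 0.05. AURKA is red in both panels, KIF20A in KYSE180 only, and FOXM1, MYBL2, CCNB2, MKI67 and BIRC5 are red and left of 0 in KYSE30.

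In KYSE180, 2 mitosis genes rose in 180D and 0 fell by limma, with 34 not passing. At an unadjusted p under 0.05, 10 were higher and 1 was lower, against 12.2% and 6.95% of all genes. Of all tested genes 2.55% were called higher and 1.21% lower, 3.75% together. The median change of the 36 genes was 0.09, against 0.02 over all genes, and 30 of the 36 changes lay above 0, against 56.4% of all genes. Without 180D replicate 1 the median was 0.05, without 180D replicate 2 it was 0.14, and with each array centred on its median it was 0.05. Among the markers of other cells, all 4 tested fibroblast genes lay above 0 in 180D. COL1A1, a fibrillar collagen, read 7.99 and 7.68 in 180D, against 7.32 and 7.19 in 180U, and rose by 0.58 ± 0.11 (limma adjusted p = 0.0350). Over the 8 fibroblast genes the mean level was 4.77 to 4.81 in 180D and 4.58 to 4.69 in 180U. Of the 9 squamous markers 8 lay below 0, with 0 called by limma (4 lower and 0 higher at an unadjusted p under 0.05). Their part in the levels of the mitosis genes was not tested.

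The 2 that rose were AURKA and the kinesin KIF20A. AURKA read 10.82 and 10.82 in 180D, against 10.50 and 10.58 in 180U. Both 180D populations lay above both 180U populations, by 0.28 ± 0.05 (limma adjusted p = 0.0366), and the second bright probe set gave 0.25. KIF20A, a kinesin that works at the midzone of the spindle and in cytokinesis, read 10.20 and 10.19 in 180D, against 9.89 and 9.91 in 180U. Its arrays lay well apart for a difference of 0.29 ± 0.05 (limma adjusted p = 0.0270). Within each pair from 1 parental population KIF20A differed by 0.29 and 0.29. With the parental population as a block neither call remained (limma adjusted p = 0.104 for AURKA and 0.101 for KIF20A), and without 180D replicate 1 the adjusted p was 0.120 and 0.0986. In the 8 fits that leave out 1 array, neither gene passed.

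The genes that fell in 30D had other values in 180D. FOXM1 read 10.54 and 10.35 in 180D, against 10.33 and 10.41 in 180U, with overlapping arrays and a difference of 0.07 ± 0.07, which was -0.02 without 180D replicate 1. MYBL2 read 9.31 and 9.18 in 180D, against 9.11 and 9.21 in 180U, and these arrays overlapped too, with a difference of 0.08 ± 0.07. CCNB2 read 10.81 and 10.87 in 180D, against 10.74 and 10.76 in 180U, a difference of 0.09 ± 0.05 with no overlap (limma adjusted p = 0.413). MKI67 read 10.06 and 10.18 in 180D, against 10.11 and 10.17 in 180U, a difference of -0.02 ± 0.06. Its arrays overlapped, while 2 of its other probe sets gave 0.24 and 0.22. BIRC5 read 10.98 and 11.02 in 180D, against 10.94 and 11.02 in 180U, and differed by 0.02 ± 0.06.

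The other genes did not pass in 180D. CDC25C read 7.57 and 7.59 in 180D, against 7.39 and 7.33 in 180U, a difference of 0.22 ± 0.05 with no overlap (limma adjusted p = 0.0710). CCNB1 read 11.40 and 11.40 in 180D, against 11.17 and 11.29 in 180U, a difference of 0.17 ± 0.06 (limma adjusted p = 0.174). CDK1 read 11.09 and 11.18 in 180D, against 11.16 and 11.08 in 180U. The CDK1 arrays interleaved, and the difference was 0.02 ± 0.07. CENPF, a large protein of the kinetochore, read 10.69 and 10.44 in 180D, against 10.24 and 10.21 in 180U. Its difference of 0.34 ± 0.08 (limma adjusted p = 0.0781) was 0.21 without 180D replicate 1. ASPM, a protein of the spindle poles, differed by 0.31 ± 0.09 and by 0.18 without that array. TPX2, the activator of AURKA on the spindle, differed by 0.24 ± 0.10 and by 0.09 without it. Dimmer probe sets gave smaller values, 0.21 and 0.05 for CENPF and 0.02 and 0.16 for ASPM. MAD2L1, which encodes the checkpoint protein MAD2, was the gene with the lowest value, -0.23 ± 0.06 (limma adjusted p = 0.114), and its other bright probe set gave 0.01. The 22 genes not named for this comparison lay between -0.12 (ECT2) and 0.22 (KIF14) and did not pass.

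**Figure D3:**
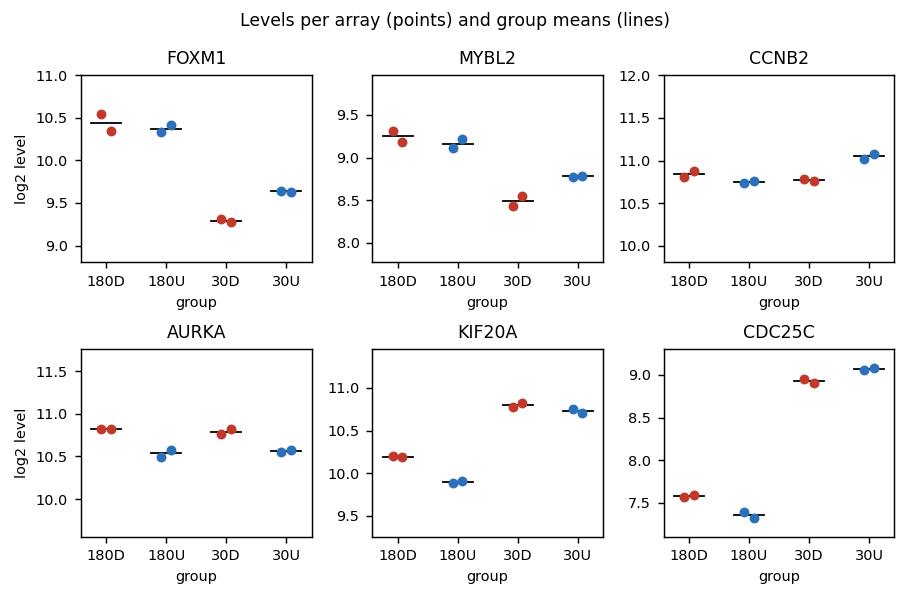
Log2 level of FOXM1, MYBL2, CCNB2, AURKA, KIF20A and CDC25C on the 8 arrays, 1 point per array and a line at each group's mean, with the D group left of the U group of each line. AURKA lies higher in D than in U in both lines; FOXM1, MYBL2 and CCNB2 lie lower in 30D than in 30U and not in 180D.

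Counted by array, the D arrays lay entirely above the U arrays for 18 of 36 genes in KYSE180 (26.6% of all genes) and entirely below for 3 (18.0%). In KYSE30 they lay above for 12 of 36 (33.8% of all genes) and below for 16 (30.9%). Counted by the parental population the arrays share, 25 of 36 genes were higher in D in both KYSE180 pairs, against 35.1% of all genes, and 3 were lower, against 24.9%. In KYSE30, 12 of 36 were higher in both pairs (38.8% of all genes) and 18 were lower (35.5%). The KYSE180 count of genes higher in both pairs was the one furthest above its background; no test was made of it, since genes on the same arrays are not independent. Across all 4 pairs, 9 of 36 genes were higher in D (12.9% of all genes) and 2 were lower (8.01%). AURKA was 1 of the 9, with 0.21 and 0.24 in the KYSE30 pairs and 0.32 and 0.25 in the KYSE180 pairs. MAD2L1 was 1 of the 2, with -0.16 and -0.28 in the KYSE30 pairs and -0.16 and -0.30 in the KYSE180 pairs. These are values of its brightest probe set. Its other bright probe set gave -0.08 in 30D and 0.01 in 180D, and a dimmer one gave -0.11 and 0.20.

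The change differed between the lines for 4 mitosis genes, which moved upward in KYSE180 relative to KYSE30 (limma, the 180D minus 180U change less the 30D minus 30U change). Of the 36 genes 4 were called higher and 0 lower, with 11 and 0 at an unadjusted p under 0.05, against 15.4% and 12.4% of all genes. The 4 called are 11.1% of the 36 genes. Among all tested genes a near share, 12.2%, was called, 6.94% higher and 5.21% lower. The median difference was 0.13 for the 36 genes and 0.01 for all genes, and 29 of the 36 lay above 0, against 52.0% of all genes. The 4 genes were CENPF with 0.47 ± 0.12 (limma adjusted p = 0.0444), FOXM1 with 0.42 ± 0.10 (0.0426), CCNB2 with 0.37 ± 0.08 (0.0229) and CDC25C with 0.36 ± 0.07 (0.0228). With all probe sets of a gene averaged, CCNB2 came to 0.09 (adjusted p = 0.585) and CENPF to 0.28 (adjusted p = 0.150), and neither was called. FOXM1 and CCNB2 had fallen in 30D, with 0.07 and 0.09 in 180D. CENPF and CDC25C had passed in neither line, with 0.34 and 0.22 in 180D and -0.12 and -0.14 in 30D.

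Other genes that had passed in 1 line, and KIF11, did not pass in this test of the difference. MYBL2 differed by 0.37 ± 0.10 (limma adjusted p = 0.0532), KIF11 by 0.43 ± 0.12 (0.0648), MKI67 by 0.25 ± 0.09 (0.112), BIRC5 by 0.24 ± 0.08 (0.0974) and KIF20A by 0.22 ± 0.07 (0.0937). AURKA, which rose in both lines, differed by 0.06 ± 0.08 (95% interval -0.12 to 0.24). With the parental population as a block 0 of the 36 differences passed by limma (11 at an unadjusted p under 0.05), with adjusted p of 0.0514 for FOXM1, 0.0649 for CDC25C, 0.0694 for CCNB2 and 0.0841 for CENPF. Leaving out 1 array left 8 called without 180D replicate 2 and 3 without 180D replicate 1, where FOXM1 came to 0.32 (adjusted p = 0.0658). It left 1 without 180U replicate 1, and 0 when 180U replicate 2 or any KYSE30 array was dropped (6 to 12 at an unadjusted p under 0.05).

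Over both lines together, AURKA was the only mitosis gene whose D minus U change passed. Its change was 0.26 ± 0.04 (limma adjusted p = 0.0467), higher in D in 4 of 4 parental pairs. Of the 36 genes 1 was called higher and 0 lower, against 0.557% and 0.317% of all genes, 0.874% together; at an unadjusted p under 0.05, 6 were higher and 1 was lower, against 9.94% and 6.04%, and 21 of the 36 lay above 0, against 55.1%. The nearest other gene was MAD2L1 at -0.22 ± 0.05 on its brightest probe set (limma adjusted p = 0.0906). Once the parental population entered as a block the AURKA call was lost (limma adjusted p = 0.206), and in that fit 0 of the 36 genes passed (6 at an unadjusted p under 0.05). It was lost as well without any 1 of the 8 arrays.

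Between the lines the mitosis genes differed far more than between sublines. In KYSE180, 18 were higher and 11 lower than in KYSE30, and 7 did not pass (limma); 36.1% of all genes were called higher and 31.0% lower, 67.1% together. The median difference was 0.17, against 0.05 for all genes. A difference of at least 0.5 was seen for 13 of the 36 genes (36.1%), near the 37.4% of all genes. All KYSE180 arrays lay above all KYSE30 arrays for 17 of 36 genes (33.8% of all genes) and below them for 11 (29.4%). Calls in both directions stood within 5 of the 9 roles.

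**Figure D4:**
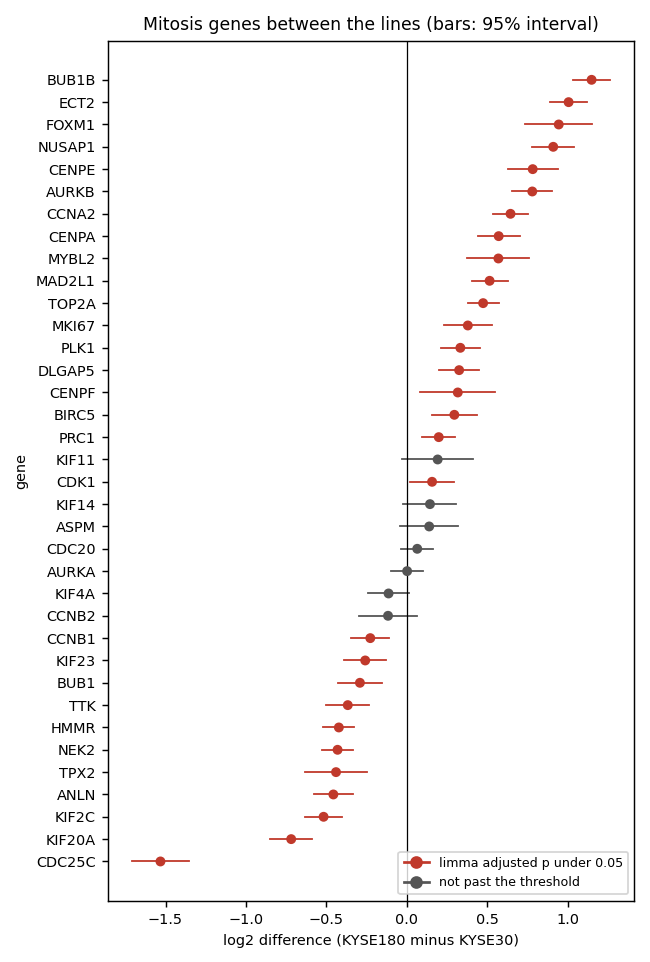
Difference of each mitosis gene between KYSE180 and KYSE30 (log2, KYSE180 minus KYSE30, over both fractions), with 95% intervals from the limma fit. CDC25C stands at -1.53 and KIF20A at -0.72, while BUB1B (1.15), ECT2 (1.01), FOXM1 (0.94) and NUSAP1 (0.91) stand on the other side of 0.

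The gene furthest down in KYSE180 was CDC25C, which read 7.57 and 7.59 in 180D and 7.39 and 7.33 in 180U, against 8.95 and 8.91 in 30D and 9.05 and 9.09 in 30U. The difference was -1.53 ± 0.08 (limma adjusted p = 3.4e-07), 2.89-fold, and a dimmer probe set gave -1.43. KIF20A differed by -0.72 ± 0.06 (limma adjusted p = 5.5e-06). Of the 6 kinesins 3 were lower and 0 higher in KYSE180 by limma (3 and 0 at an unadjusted p under 0.05): besides KIF20A, these were the microtubule depolymerase KIF2C (-0.52 ± 0.05) and KIF23 (-0.26 ± 0.06), a subunit of the centralspindlin complex. NEK2, a kinase that separates centrosomes (-0.43 ± 0.04), and TPX2 (-0.44 ± 0.08) were lower. The spindle protein HMMR (-0.42 ± 0.04), the contractile ring protein ANLN (-0.46 ± 0.05), the checkpoint kinases TTK (-0.37 ± 0.06) and BUB1 (-0.29 ± 0.06), and CCNB1 (-0.23 ± 0.05) were lower too.

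The gene furthest up in KYSE180 was BUB1B, the checkpoint protein BUBR1, which read 11.21 and 11.11 in 180D and 11.11 and 11.04 in 180U, against 9.95 and 9.96 in 30D and 9.95 and 10.02 in 30U. It was higher by 1.15 ± 0.05 (limma adjusted p = 1.8e-07). ECT2, the exchange factor that places the contractile ring, read 10.88 and 10.79 in 180D and 11.01 and 10.89 in 180U, against 9.86 and 9.88 in 30D and 9.92 and 9.90 in 30U. It was higher by 1.01 ± 0.05 (limma adjusted p = 3.3e-07). FOXM1 was higher by 0.94 ± 0.09 and MYBL2 by 0.57 ± 0.08, both factors lying above every KYSE30 array on every KYSE180 array. NUSAP1, a protein that bundles spindle microtubules, was higher by 0.91 ± 0.06, AURKB, the kinase of the chromosome passenger complex, by 0.78 ± 0.05, and CCNA2 by 0.64 ± 0.05.

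All 3 centromere genes were higher in KYSE180: CENPE by 0.78 ± 0.07, the centromeric histone CENPA by 0.57 ± 0.06 and CENPF by 0.32 ± 0.10. The CENPF call was lost without 30D replicate 1 or 30D replicate 2 (0.27 in each case). MAD2L1 (0.51 ± 0.05), TOP2A (0.47 ± 0.04), MKI67 (0.38 ± 0.06), PLK1 (0.33 ± 0.05), DLGAP5 (0.32 ± 0.05), BIRC5 (0.30 ± 0.06), PRC1 (0.20 ± 0.04) and CDK1 (0.16 ± 0.06, limma adjusted p = 0.0457) were higher as well. Probe sets of a gene did not always give the same size: a second one gave 1.08 for BIRC5 and 1.20 for CENPF, and 2 other bright ones of CDK1 gave 0.02 and -0.01. The 7 genes that did not pass were CCNB2, AURKA, CDC20, KIF11, KIF4A, KIF14 and ASPM, with differences of -0.12 to 0.19. With the parental block 2 kinesins among these were called higher in KYSE180. They were KIF11 (0.19, limma adjusted p = 0.0343) and KIF14 (0.14, limma adjusted p = 0.0346). That block entered with a consensus correlation of -0.37, and a negative value narrows the standard error of a contrast between populations. Around the group means the partners correlated by only -0.02 and 0.02, so these 2 calls rest on that setting. In a fit of 4 group means CCNB2 (-0.12, limma adjusted p = 0.0245) and KIF11 (0.19, limma adjusted p = 0.0228) were called. AURKA differed by 0.00 (95% interval -0.10 to 0.10) on its brightest probe set and by 0.22 on its other bright one. With all probe sets of a gene averaged, AURKA was called at 0.11 (limma adjusted p = 0.0464) and ASPM at 0.26 (limma adjusted p = 0.0274).

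Lists of other cell cycle genes were set beside the mitosis genes. Of all tested genes, 8.12% were called lower and 8.42% higher in 30D, and 1.21% lower and 2.55% higher in 180D. In 30D, DNA replication and S phase genes showed the largest count: 26 of 40 fell and 0 rose by limma (32 lower and 0 higher at an unadjusted p under 0.05), with a median of -0.27. TYMS, which makes thymidylate for DNA synthesis, averaged 11.86 in 30D and 12.32 in 30U and fell by 0.46 ± 0.05 (limma adjusted p = 0.00185). CDC45, a part of the replicative helicase, fell by 0.47 ± 0.05, and RFC2, a subunit of the clamp loader, by 0.46 ± 0.05. With the parental block 17 of the 40 fell, and without 1 KYSE30 array 12 (30D replicate 2 or 30U replicate 1) or 13 (30D replicate 1 or 30U replicate 2) did. In 180D, 0 of the 40 passed by limma (2 higher and 3 lower at an unadjusted p under 0.05), with a median of -0.03.

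Genes that work beside the 36 in mitosis behaved unevenly in 30D. Of 31 other kinetochore and centromere genes, 11 fell and 0 rose by limma (18 and 0 at an unadjusted p under 0.05), with a median of -0.17. CENPK, a subunit of the inner kinetochore, averaged 8.45 in 30D and 9.24 in 30U (-0.79 ± 0.07, limma adjusted p = 0.00102), and SPC24, a subunit of the NDC80 complex, fell by 0.54 ± 0.06. Of 22 condensin, cohesin and separase genes 7 fell and 0 rose by limma (10 and 1 at an unadjusted p under 0.05), led by the condensin subunit NCAPD2 (-0.57 ± 0.06). Of 46 other mitotic regulators 5 fell and 1 rose, against 8.12% and 8.42% of all genes, with a median of -0.02. These counts were lower when a KYSE30 array was left out: 5 kinetochore genes, 1 or 2 condensin and cohesin genes and 0 or 1 mitotic regulators fell without any 1 of them, and with the parental block 9, 4 and 2 fell.

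In 180D, 2 of the 46 other mitotic regulators rose by limma and 0 fell (16 higher and 0 lower at an unadjusted p under 0.05): UBE2C, the ubiquitin-conjugating enzyme of the anaphase-promoting complex, by 0.30 ± 0.05, and PSRC1 by 0.26 ± 0.05. Both calls were lost with the parental block (adjusted p = 0.0881 and 0.112). Of all genes, 2.55% were called higher and 1.21% lower in 180D. In the test of the difference between the lines, 6.94% of all genes were called higher and 5.21% lower. That test called 13 of 40 replication genes, 8 of 31 kinetochore genes and 4 of 46 mitotic regulators higher in KYSE180. It called 0 lower in each list by limma (1, 0 and 0 at an unadjusted p under 0.05). With the parental block 8, 5 and 2 were higher; without any 1 KYSE30 array 4 or 5, 4, and 0 or 1.

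Regulators that act upstream of the mitosis genes were listed as well. In 30D 8.12% of all genes were called lower and 8.42% higher, and in 180D 1.21% lower and 2.55% higher. CDKN1A, the p21 inhibitor through which p53 represses cell cycle genes, averaged 8.96 in 30D and 9.91 in 30U. It fell by 0.95 ± 0.07 (limma adjusted p = 0.000299; 0.00632 with the parental block) and passed in all 8 fits that leave out 1 array, while in KYSE180 the difference was -0.08 ± 0.07 (limma adjusted p = 0.577). E2F1, an activator of replication genes, differed by 0.10 ± 0.06 in 30D (limma adjusted p = 0.285) and by -0.13 ± 0.06 in 180D (0.265). Of 11 genes of the DREAM and MuvB complexes 4 fell and 1 rose in 30D, with 1 and 1 with the parental block and 1 fallen without any 1 KYSE30 array, and 0 passed in 180D by limma (0 at an unadjusted p under 0.05). Of 17 p53 target genes, CDKN1A among them, 7 fell and 2 rose in 30D. In 180D 1 rose and 0 fell by limma (2 and 1 at an unadjusted p under 0.05). The p53 target that rose in 180D was GDF15, by 0.71 (limma adjusted p = 0.00154). It changed by -1.52 in 30D (limma adjusted p = 3.8e-05), and both calls held with the parental block. The 14 G1 cyclins, CDKs and inhibitors, a list that also holds CDKN1A, had 2 fallen and 1 risen in 30D, and the 16 genes of the anaphase-promoting complex had 2 fallen and 0 risen by limma (2 and 0 at an unadjusted p under 0.05). Without 1 KYSE30 array 5 or 6 p53 targets, 1 gene of the G1 list and 0 or 1 of the anaphase-promoting complex fell. The part of these genes in the levels of the mitosis genes was not tested.

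**Figure D5:**
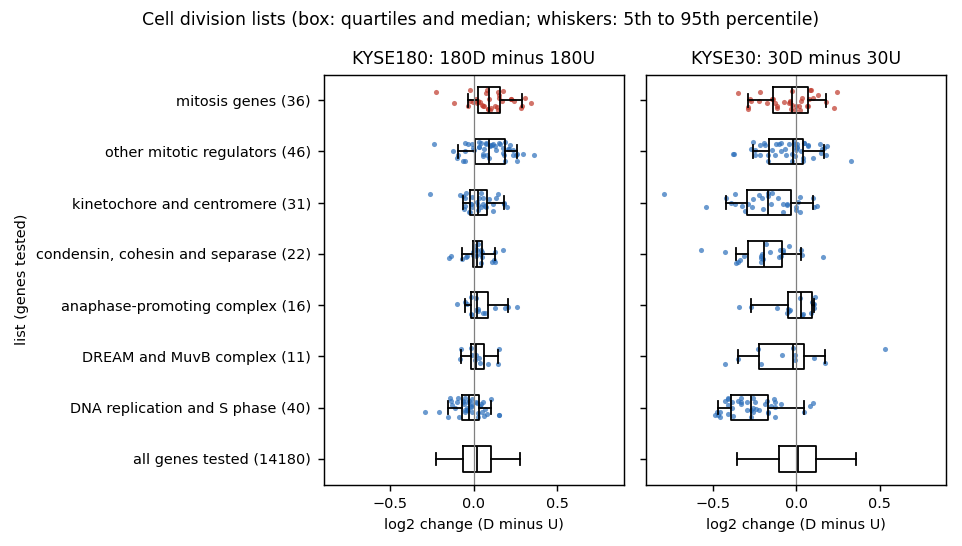
Change (log2, D minus U) of the genes of each cell cycle list in KYSE180 and KYSE30, 1 point per gene, with boxes for the median and quartiles and whiskers for the 5th to 95th percentile; the bottom row is all 14180 tested genes. The mitosis genes have medians of 0.09 in KYSE180 and -0.03 in KYSE30, while the DNA replication and S phase genes have -0.03 in KYSE180 and -0.27 in KYSE30.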

How the data were processed

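RNA of 8 selected populations was hybridised to Affymetrix HG-U133 Plus 2.0 arrays, 2 per group. The deposited values are log2 expression values that the authors made with RMA, per the submitters' processing notes; no RMA version is given in the sources used here. RMA makes the arrays' distributions alike, so a change in total RNA would not be seen, and it compresses dim signals. Of 54675 probe sets, 41091 have 1 gene symbol in the platform annotation, 1801 several and 11721 none, and 62 are controls; symbols were updated by Entrez ID (41037 matched). Probe sets under the 40th percentile of mean level (4.46) were left out, which left 14180 of 19775 genes, each read by its brightest probe set. A CENPA probe set that also lists SLC35F6 was left out.

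Tests used limma 3.58.1 (lmFit and eBayes) under R 4.3.3 and were two-sided, with p-values adjusted by Benjamini-Hochberg over all tested genes and a threshold of 0.05. A fit of 4 group means gave the changes within each line and their difference; the change shared by both lines and the contrast of KYSE180 with KYSE30 came from an additive fit of line and fraction. The scripts were tested on simulated data. The labels pair each D with a U population of the same parental population, so the fit with that block is printed where it changes a call. Deviations from the group means correlated by -0.02 and 0.02 within the pairs. The parental populations entered as fixed terms in the fits of D against U and as a random block in the contrast of the lines (duplicateCorrelation, consensus -0.37), and the number of arrays limits the precision. Named are all 36 mitosis genes, a selection of the genes of the other lists that passed, and CDKN1A and E2F1. Other genes of those lists passed and are only counted. The mitosis genes and the other lists were chosen with earlier results of these data known.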

Additional observations from a re-analysis of the deposited data

Results flagged for a closer look

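The test of the difference between the lines called 4 of the 36 mitosis genes (11.1%), near the 12.2% of all genes that it called. The D minus U change of these 4 was higher in KYSE180 than in KYSE30, and 6.94% of all genes were called in that direction. The D minus U change in KYSE180 exceeded that in KYSE30 by 0.47 for CENPF, 0.42 for FOXM1, 0.37 for CCNB2 and 0.36 for CDC25C on the log2 scale (limma adjusted p of 0.0444, 0.0426, 0.0229 and 0.0228). With all probe sets of a gene averaged, CCNB2 came to 0.09 (adjusted p = 0.585) and CENPF to 0.28 (adjusted p = 0.150); without 180D replicate 1, FOXM1 came to 0.32 (adjusted p = 0.0658). FOXM1 differed by 0.07 in 180D, -0.02 without 180D replicate 1, and by -0.35 in 30D. CCNB2 differed by 0.09 in 180D and by -0.28 in 30D. CENPF differed by 0.34 in 180D, 0.21 without 180D replicate 1, and by -0.12 in 30D. CDC25C differed by 0.22 in 180D and -0.14 in 30D. None of the 4 remained below the threshold once the parental population was a block.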

How the results depend on the processing

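Results were recomputed under 17 other settings. The 29 mitosis genes that differed between KYSE180 and KYSE30 stayed between 27 and 31; CDK1 (kept in 6 of 16) and CENPF (14 of 16) were the genes lost in some. The small counts within the lines depended on the setting. For 30D against 30U (6 genes called), 2 passed with no filter on dim probe sets, 3 with all probe sets of a gene averaged, 11 with an intensity trend in eBayes and 3 with the parental population as replicate block, and 0 to 9 without 1 array; the averaged CCNB2 probe sets gave 0.0205, the only value that turned its sign. For 180D against 180U (2 called), 0 passed with no filter, 1 with a filter at the 20th percentile, 4 at the 60th, 1 with centred arrays, 7 with the trend, 0 with the replicate block, 0 with that line alone and 0 to 3 without 1 array. For the difference (4 called), 0 passed with no filter, 2 at the 20th percentile, 2 with averaged probe sets, 10 with the trend, 0 with the replicate block and 0 to 8 without 1 array. Over both lines (1 called), 0 passed with no filter, at the 20th percentile, with averaged probe sets, with centred arrays, with the replicate block and without any 1 array, 2 with the trend and 3 in the fit of 4 group means. In these fits of limma with 0 called, 3 to 13 mitosis genes had an unadjusted p under 0.05. A fit that leaves a group with 1 array assumes that it varies like the others. Median changes moved by less than the replicate SD of 0.03 in 68 of 79 cases. With 2 arrays per group, standard errors within a line were 0.05 to 0.10.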
